A study of Mus musculus with 4 samples.

Results

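The blood-testis barrier is a belt of junctions between neighbouring Sertoli cells, the somatic nurse cells of the seminiferous tubule, and it separates meiotic and later germ cells from blood. Unlike most epithelial barriers it joins tight junctions, adherens junctions of the actin-rich ectoplasmic specialization, gap junctions and desmosomes in 1 band, which opens and reseals as spermatocytes pass. The 9 genes described here encode proteins of that band and were chosen by name: the claudins Cldn11, Cldn3 and Cldn5, occludin (Ocln), the junctional adhesion molecules F11r and Jam3, the scaffold Tjp1, N-cadherin (Cdh2) and connexin 43 (Gja1). All 9 were present in each of the 4 tables, out of 17934 genes.

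RNA-seq of whole testis compared male C57BL/6 mice of genotype Tas1r3-/- (KO, 2 libraries) with Tas1r3+/+ mice of that strain (WT, 2 libraries). All had eaten a western diet for 18 weeks, so no library shows the genotypes without it. The Tas1r3 protein pairs with Tas1r2 or Tas1r1 to form the receptors for sweet and for umami taste. How the allele was made, the age of the mice and whether the libraries of a genotype come from separate animals are not given in the sources used here, and the p-values therefore speak only of the spread among these 4 libraries, some or all of which may be technical.

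The libraries held an estimated 748637 and 597937 assigned reads in KO, against 1719356 and 1807694 in WT. Values are CPM, reads per 1000000 assigned reads, and estimated reads are CPM divided by the CPM of 1 read. Tas1r3 itself had 1.34 and 0 CPM in KO, against 13.8 and 20.5 CPM in WT. Across genes, log2(CPM + 1) correlated at 0.910 between the KO libraries and at 0.963 between the WT libraries. Sertoli cell RNA was present in every library: all 27 listed Sertoli cell markers, of which Etv5 is also in the spermatogonia list, were in the tables, with Clu (clusterin) at 1182 and 998 CPM in KO and 1128 and 1154 CPM in WT, and Amhr2 (the anti-Mullerian hormone receptor) at 224 and 212 CPM in KO and 210 and 225 CPM in WT.

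For none of the 9 junction genes was a difference between KO and WT testis beyond the spread between libraries detected. By limma on log2(CPM + 1), 0 of 9 passed a Benjamini-Hochberg adjusted p under 0.05 over the 17654 genes tested (adjusted p from 0.950 to 0.994), and 0 had an unadjusted p under 0.05. Over all genes tested, 0.00566% were called, which is 1 gene, and 4.33% had an unadjusted p under 0.05. The targeted gene Tas1r3 was itself not called (log2 fold change -3.54, KO minus WT; limma adjusted p = 0.627). The lack of a call therefore does not show that a gene was unchanged. Fold changes below are KO minus WT on the log2(CPM + 1) scale, which understates the change of low genes. They were above 0 for 6 junction genes and below 0 for 3, with a median of 0.09, beside a median of -0.04 over all genes tested. The 95% interval of every one of the 9 included no difference. For 7 of them it lay wholly within a 2-fold change in either direction, and for the 2 with the fewest reads, Ocln and Cldn5, it reached past 2-fold on the higher side. In whole testis, fewer Sertoli cells and less junction RNA per cell cannot be told apart.

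**Figure D1:**
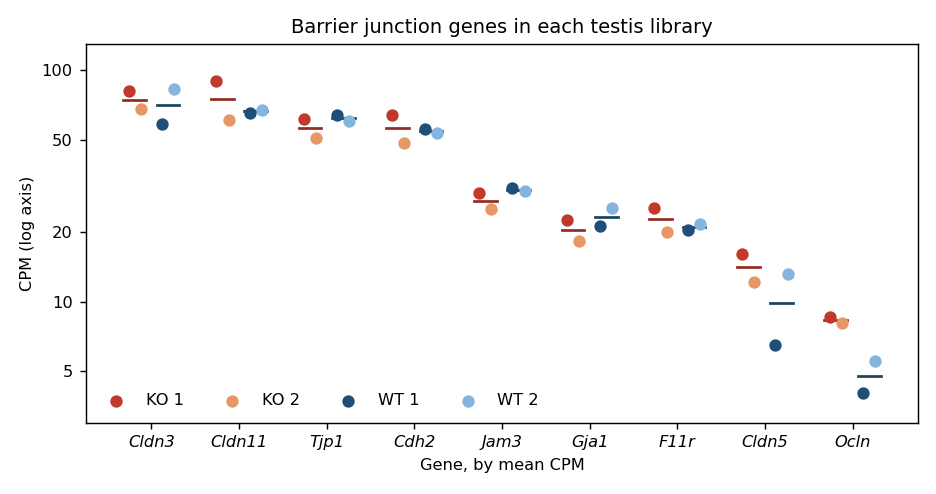
CPM (log axis) of the 9 junction genes in each library, ordered by mean; points are libraries, KO left of WT within each gene, and lines are genotype means. Cldn3 and Cldn11 lie highest, Ocln is lowest with 8.58 and 8.09 CPM in KO above 4.04 and 5.53 CPM in WT, and for 7 genes the genotypes overlap.

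Per kilobase of transcript, the scale on which levels of different genes can be compared, the claudins of the Sertoli cell seal led. Cldn3 averaged 57.6 CPM per kb over the 4 libraries (range 46.4 to 65.7) and Cldn11 averaged 37.9 (32.7 to 47.9). Their ranges overlapped, while that of Cldn11 lay apart from the next gene. Jam3 followed at 14.7 CPM per kb (12.7 to 15.7) and Cdh2 at 11.5 (9.995 to 13.3), whose ranges overlapped. F11r at 8.81, Tjp1 at 8.56, Cldn5 at 8.46 and Gja1 at 7.04 CPM per kb followed, each overlapping its neighbours among these 4. Ocln stood apart at the bottom with 1.86 CPM per kb (1.22 to 2.69). Both extremes are thus transmembrane tight junction proteins.

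Claudins form the strands that seal the space between cells. Cldn11, the claudin without which mouse Sertoli cells form no tight junction strands, lies on chromosome 3, 31204069 to 31218476 of mm39, and had 89.7 and 61.1 CPM in KO and 65.7 and 67.5 CPM in WT. The KO libraries lay on either side of both WT libraries, and the log2 fold change was 0.15 (SE 0.22, 95% interval -0.34 to 0.65; limma adjusted p = 0.959). Cldn3, a claudin of newly formed barrier junctions in mouse, lies on chromosome 5, 135015068 to 135016331, and had 81.5 and 67.9 CPM in KO and 58.6 and 83.0 CPM in WT. Here the WT libraries enclosed both KO libraries, and the log2 fold change was 0.09 (SE 0.22, interval -0.40 to 0.59; limma adjusted p = 0.977). Cldn5, a claudin of Sertoli cells and of vascular endothelium on chromosome 16, 18595597 to 18597013, had 16.0 and 12.1 CPM in KO and 6.53 and 13.2 CPM in WT, from 12 and 7.3 estimated reads in KO and 11.2 and 23.9 in WT. One WT library was low and the other lay between the KO libraries, with a log2 fold change of 0.53 (SE 0.42, interval -0.42 to 1.49; limma adjusted p = 0.950). It was 0.076 without WT replicate 1 and 0.99 without WT replicate 2. The 14 markers of vascular endothelium in the tables, of which Cldn5 is not one, summed to 78.3 and 68.0 CPM in KO and 97.7 and 105.9 CPM in WT, so this sum was lower in KO while the mean of Cldn5 was not. Of the 14 in the tables, 2 averaged under 1 CPM over the 4 libraries and were not tested, among them Robo4, at 0 CPM in both KO libraries. The list held 14 of 15 markers looked for. Their part in the Cldn5 values was not tested.

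The 250 bases before each claudin's start site are shown because the 3 genes are compared as 1 family. They come from RefSeq on GRCm38.p6, plus strand, at chr3:31149670-31149919, chr5:134985964-134986213 and chr16:18776597-18776846. Capitals mark the GC box GGGCGG and the CCAAT box CCAAT, on either strand.
Cldn11: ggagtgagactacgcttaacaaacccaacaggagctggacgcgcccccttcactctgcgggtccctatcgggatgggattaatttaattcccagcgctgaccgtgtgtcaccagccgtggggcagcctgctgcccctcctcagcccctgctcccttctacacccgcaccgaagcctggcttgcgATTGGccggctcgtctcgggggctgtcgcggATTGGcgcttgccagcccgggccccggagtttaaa
Cldn3: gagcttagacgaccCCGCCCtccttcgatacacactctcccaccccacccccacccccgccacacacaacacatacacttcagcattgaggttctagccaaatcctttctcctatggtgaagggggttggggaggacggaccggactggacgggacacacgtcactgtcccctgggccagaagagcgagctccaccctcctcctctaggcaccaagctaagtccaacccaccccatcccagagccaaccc
Cldn5: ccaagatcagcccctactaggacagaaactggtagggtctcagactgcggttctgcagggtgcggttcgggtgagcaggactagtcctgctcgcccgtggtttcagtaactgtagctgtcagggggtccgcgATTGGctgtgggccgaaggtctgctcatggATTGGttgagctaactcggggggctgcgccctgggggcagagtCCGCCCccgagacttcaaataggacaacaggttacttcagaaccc
Cldn11 held 2 CCAAT boxes and 0 GC boxes, Cldn3 held 0 and 1, and Cldn5 held 2 and 1. Promoters were matched for 7 of the 9 junction genes, with 8 windows in all because Ocln has 2 start sites. A GC box was in 6 of these 8 windows and in 32.7% of 32851 windows of that length, a CCAAT box in 4 of 8 and in 33.8%, and the TATA box TATAAA, on either strand, in 0 of 8 and in 12.4%. The motifs do not overlap one another in these 3 sequences, and a match of letters is not evidence of binding.

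Ocln was the junction gene with the largest fold change and the fewest reads. It encodes occludin, a tight junction membrane protein whose loss in mice leads to testicular atrophy with age, and lies on chromosome 13, 100633013 to 100689227. It had 8.58 and 8.09 CPM in KO and 4.04 and 5.53 CPM in WT, from 6.4 and 4.8 estimated reads in KO and 6.9 and 10 in WT. Both KO libraries lay above both WT libraries. Genotypes separated this way, higher in KO, for 15.1% of all genes tested, and among the 9 junction genes for Ocln alone. The log2 fold change was 0.70 (SE 0.46, 95% interval -0.33 to 1.74; limma adjusted p = 0.950). Summed over libraries and scaled by depth, reads gave a KO to WT ratio of 1.69 (95% exact limits 0.718 and 3.84). These limits cover counting error only, and they include no difference.

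Reads of Ocln were assigned to 2 RefSeq transcripts with different start sites, and the assignment differed between libraries. The transcript from the upstream start had 5.72e-05 and 8.09 CPM in KO and 0.655 and 2.51 CPM in WT, and the transcript from the downstream start had 8.58 and 1.57e-06 CPM in KO and 3.38 and 3.03 CPM in WT. Each KO library thus had nearly all its few reads on 1 transcript, a different one in each, while the WT libraries had both. With the transcript of the higher mean taken alone, the log2 fold change of Ocln turned to -0.44. In a single random thinning of all libraries to the shallowest it was 2.02.

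F11r and Jam3 encode JAM-A and JAM-C, adhesion molecules of the immunoglobulin superfamily, and JAM-C is also needed for spermatid polarity in mice. F11r, on chromosome 1, 171265129 to 171292162, had 25.4 and 20.1 CPM in KO and 20.4 and 21.7 CPM in WT. The WT values lay between the KO values, and the log2 fold change was 0.10 (SE 0.28, interval -0.53 to 0.73; limma adjusted p = 0.979). Jam3, on chromosome 9, 27008680 to 27066718, had 29.4 and 25.1 CPM in KO and 31.0 and 30.0 CPM in WT. Both KO libraries lay below both WT libraries, as for 19.2% of all genes tested, and Jam3 was the single junction gene separated in that direction. Its log2 fold change was -0.16 (SE 0.24, interval -0.72 to 0.39; limma adjusted p = 0.960), and from 37 reads in KO and 108 in WT the depth-scaled ratio was 0.897 with an exact counting interval from 0.600 to 1.31.

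Tjp1 encodes ZO-1, the scaffold that ties claudins, occludin and JAMs to actin. On chromosome 7, 64945913 to 65020993 of mm39, it had 61.4 and 51.1 CPM in KO and 63.9 and 60.2 CPM in WT. One KO library lay between the WT libraries and the other below both, with a log2 fold change of -0.14 (SE 0.20, interval -0.59 to 0.30; limma adjusted p = 0.957). With the highest transcript taken alone it was -0.42. Its reads were divided between 2 transcripts that differ by a coding cassette exon of 240 bases, or 80 residues, known as the alpha region of ZO-1; a second coding exon is 60 bases longer in the transcript without it. The exon is shown because the transcripts are told apart by it. It is read from the GENCODE transcript on GRCm38, at chr7:65314093-65314332 on the minus strand, with the exon in capitals between 20 bases of each neighbouring exon.
Tjp1 exon: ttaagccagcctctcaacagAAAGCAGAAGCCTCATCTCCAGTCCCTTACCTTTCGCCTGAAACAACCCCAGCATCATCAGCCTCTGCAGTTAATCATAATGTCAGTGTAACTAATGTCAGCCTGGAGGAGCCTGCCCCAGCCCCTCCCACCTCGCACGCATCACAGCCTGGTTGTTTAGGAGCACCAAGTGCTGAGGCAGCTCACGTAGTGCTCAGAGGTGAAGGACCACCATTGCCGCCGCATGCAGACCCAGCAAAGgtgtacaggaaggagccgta
The transcript with this exon had 23.3 and 11.2 CPM in KO and 4.83 and 13.7 CPM in WT, and the transcript without it had 38.1 and 39.8 CPM in KO and 59.1 and 46.6 CPM in WT. The exon-containing transcript made up 37.9% and 22.0% of Tjp1 in KO and 7.56% and 22.7% in WT, from 17.5 and 6.7 estimated reads in KO and 8.3 and 24.7 in WT. One KO library was highest and one WT library lowest, and the remaining KO and WT libraries differed by under 1 percentage point, so the shares overlapped. How many of these reads touch the exon cannot be read from the tables, since the software divides shared reads between transcripts.

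**Figure D2:**
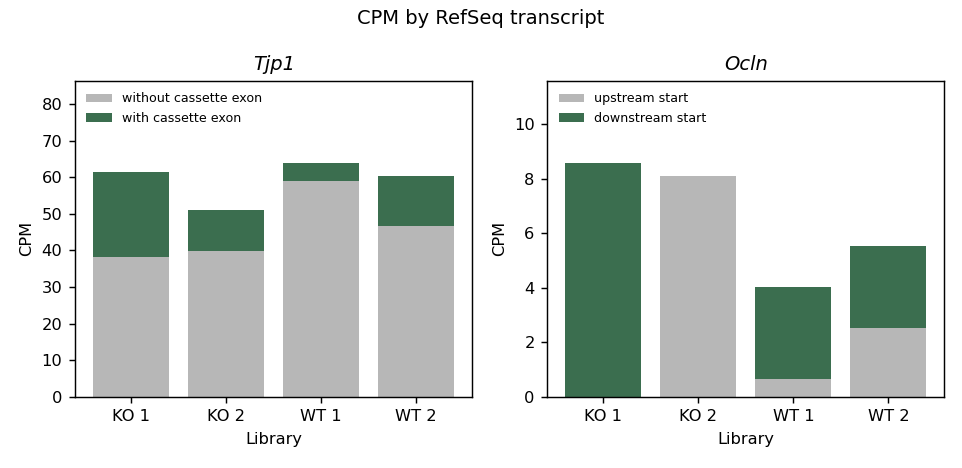
CPM of the 2 RefSeq transcripts of Tjp1 (left) and Ocln (right) in each library, stacked so that the bar height is the gene's CPM. The Tjp1 transcript with the cassette exon ranges from 4.83 CPM in 1 WT library to 23.3 CPM in 1 KO library, and the KO libraries assign Ocln to different transcripts.

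Cdh2 and Gja1 represent the adherens and gap junctions of the barrier. Cdh2, encoding N-cadherin, which joins Sertoli cells to each other and to germ cells, lies on chromosome 18, 16721934 to 16942304. It had 64.3 and 48.4 CPM in KO and 55.6 and 53.5 CPM in WT, so the KO values enclosed the WT values, and its log2 fold change was 0.03, the smallest of the 9 (SE 0.21, interval -0.45 to 0.51; limma adjusted p = 0.994). Gja1, encoding connexin 43, the main gap junction protein of Sertoli cells, lies on chromosome 10, 56253396 to 56266516. It had 22.5 and 18.4 CPM in KO and 21.2 and 25.4 CPM in WT. The genotypes overlapped, with a log2 fold change of -0.18 (SE 0.28, interval -0.82 to 0.45; limma adjusted p = 0.960).

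**Figure D3:**
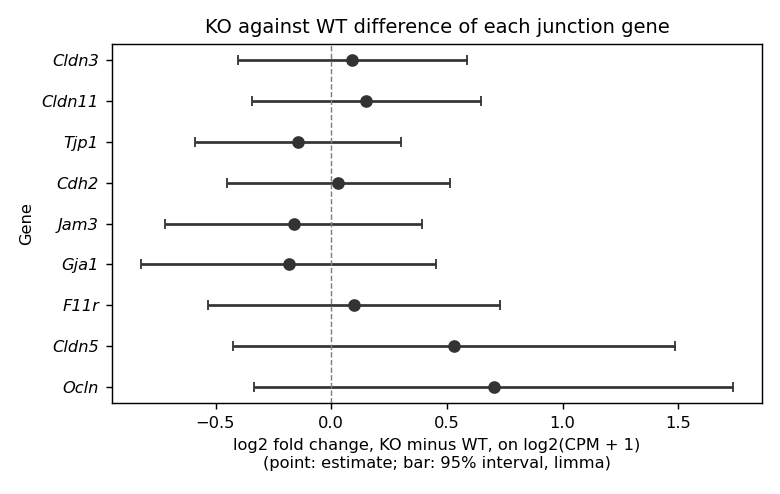
Log2 fold change of each junction gene, KO minus WT, on log2(CPM + 1), with its 95% interval from limma, ordered by mean CPM from top to bottom. Every interval crosses 0, and the widest are those of Cldn5 (-0.42 to 1.49) and Ocln (-0.33 to 1.74).

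For the 9 junction genes, the KO libraries differed from each other in 1 direction. KO replicate 1 had a higher value than KO replicate 2 for 9 of 9 junction genes, by a factor of 1.06 (Ocln) to 1.47 (Cldn11), against 51.0% of all genes tested and 54.6% of genes averaging 10 to 100 CPM. The other junction lists described below did not share this: KO replicate 1 was higher for 41.7% to 55.6% of their genes. In WT, replicate 1 was above replicate 2 for 3 of 9, with factors from 0.495 (Cldn5) to 1.06 (Tjp1), against 53.7% of all genes tested. The 9 genes together summed to 399 and 312 CPM in KO and 327 and 360 CPM in WT, so that 1 KO library was highest and the other lowest.

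Cell type markers also differed between replicates, in KO and in WT. The Sertoli cell list was higher in KO replicate 1 than in KO replicate 2 for 20 of 27 members, and in WT replicate 1 than in WT replicate 2 for 18 of 27, and summed to 2326 and 2067 CPM in KO and to 2260 and 2267 CPM in WT. The spermatocyte list was higher in KO replicate 1 for 8 of 10 and in WT replicate 1 for 9 of 10, and summed to 1189 and 998 CPM in KO and 964 and 930 CPM in WT. The spermatid list was higher in KO replicate 1 for 3 of 12 and in WT replicate 1 for 7 of 12, and summed to 30756 and 41411 CPM in KO and 34857 and 35006 CPM in WT. Divided by the Sertoli cell sum, the sum of the 9 junction genes was 0.171 and 0.151 in KO and 0.145 and 0.159 in WT, and the genotypes still overlapped. The remaining marker lists summed to 260 and 236 CPM in KO and 233 and 204 CPM in WT for spermatogonia (10 of 11 in the tables), and to 1676 and 1732 CPM in KO and 1842 and 1935 CPM in WT for Leydig cells (10 of 10). Peritubular myoid markers (8 of 8) summed to 346 and 430 CPM in KO and 440 and 470 CPM in WT, and macrophage markers (9 of 10) to 47.1 and 64.3 CPM in KO and 58.0 and 64.3 CPM in WT. Red blood cell markers (6 of 7) summed to 35.8 and 59.2 CPM in KO and 53.0 and 188 CPM in WT, and those of epididymis and efferent duct (5 of 10) to 38.9 and 41.2 CPM in KO and 83.1 and 48.3 CPM in WT. Some of these sums separated by genotype. Both KO libraries lay above both WT libraries for spermatogonia and spermatocytes. They lay below for Leydig cells, peritubular myoid cells, vascular endothelium, and epididymis and efferent duct. The sums of the other marker lists overlapped. Single genes separated this way for 15.1% (higher in KO) and 19.2% (lower) of all genes tested. The part of cell makeup in the junction gene values was not tested. Without KO replicate 1 the median log2 fold change of the 9 was -0.12, and without KO replicate 2 it was 0.23. The fold changes of Cldn11, Cldn3, Cdh2 and F11r lay below 0 without KO replicate 1 (-0.12, -0.04, -0.17 and -0.06), and that of Cldn3 also without WT replicate 1 (-0.16). In a single random thinning to equal depth, those of Cldn5, F11r and Gja1 turned direction as well (-0.20, -0.15 and 0.17).

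**Figure D4:**
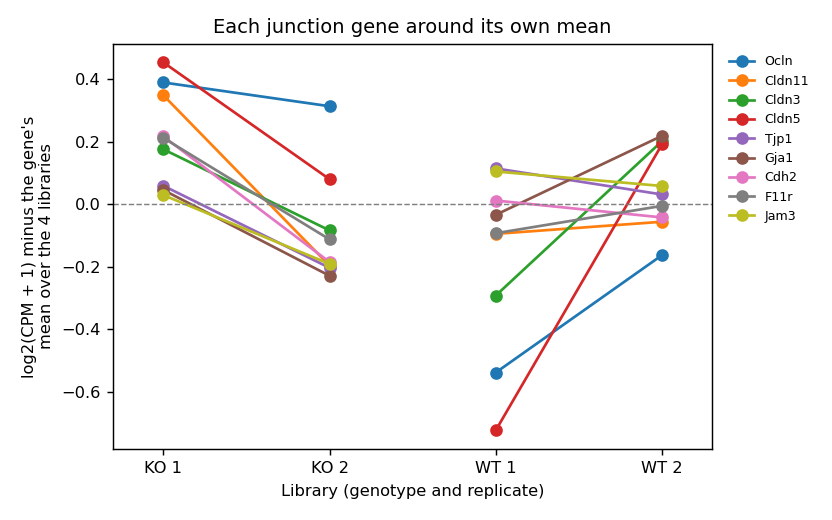
Log2(CPM + 1) of each junction gene minus its own mean over the 4 libraries; each colour is a gene and lines join the libraries of 1 genotype. All 9 lines run down between KO replicate 1 and KO replicate 2, while in WT 6 of 9 genes were higher in replicate 2, most of all Cldn5 (6.53 CPM in replicate 1 and 13.2 CPM in replicate 2).

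Other junction genes were read from 4 lists, and 0 passed over all genes in any of them (limma adjusted p from 0.950 to 0.999). Of 34 further tight junction genes 27 were in the tables and 26 were tested, with log2 fold changes above 0 for 10 and below 0 for 16 (median -0.13) and 1 at an unadjusted p under 0.05. That gene, Magi1, a membrane-associated scaffold, had 7.54 and 8.97 CPM in KO and 18.2 and 15.1 CPM in WT (log2 fold change -0.93, SE 0.36; limma adjusted p = 0.950). The 95% exact counting limits of its depth-scaled KO to WT ratio were 0.231 and 0.939, both below 1. Such limits cover counting error only, and Magi1 was picked from the list for its small unadjusted p. Of the cingulin genes of the cytoplasmic plaque, Cgn had 58.5 and 44.4 CPM in KO and 53.9 and 60.8 CPM in WT, and the genotypes overlapped. Cgnl1 had 45.5 and 44.8 CPM in KO, below both WT libraries at 50.5 and 64.6 CPM. Among the 26 tested, the genotypes did not overlap for 2 genes higher in KO and 6 lower. Over all genes tested these shares were 15.1% and 19.2%. Ybx3, a Y-box factor that binds ZO-1 and stores messenger RNA in germ cells, was the most abundant of the list with 2080 and 2198 CPM in KO and 2316 and 2434 CPM in WT. Its exact counting limits were 0.860 and 0.936, also below 1 (limma adjusted p = 0.950). The polarity gene Pard3 had 8.64 and 19.2 CPM in KO and 7.88 and 6.68 CPM in WT. Cldn7, another claudin, had 0 estimated reads in KO and 8 in WT, with 95% exact counting limits of 0 and 1.53 for the depth-scaled KO to WT ratio, which include no difference.

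All 36 genes listed for the adherens junction and ectoplasmic specialization were tested, 18 with a log2 fold change above 0 and 18 below (median 0.001), and 1 had an unadjusted p under 0.05. Nectin3, the nectin that spermatids present to Sertoli cell nectin 2, was the most abundant together with Arpc2, of the actin-branching complex. Nectin3 had 311 and 311 CPM in KO and 295 and 307 CPM in WT, and Arpc2 had 154 and 105 CPM in KO and 126 and 114 CPM in WT. Actr3, the Arp3 subunit of that complex, had 28.1 and 26.8 CPM in KO and 20.4 and 17.6 CPM in WT. The actin-bundling gene Fscn1 had 6.91 and 7.90 CPM in KO and 14.5 and 13.0 CPM in WT, its relative Fscn2 had 0 estimated reads in KO and 9 in WT (exact counting limits of the ratio 0 and 1.33), and the laminin gene Lamb3 had 10.7 and 11.7 CPM in KO and 15.4 and 18.2 CPM in WT. The genotypes did not overlap for 10 of the 36, 5 higher in KO, among them Actr3 and Nectin3, and 5 lower, among them Fscn1, Fscn2 and Lamb3, beside 15.1% higher and 19.2% lower over all genes tested. None of them passed.

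Among 14 further connexin and pannexin genes in the tables, of 21 listed, 7 had log2 fold changes above 0 and 7 below (median -0.07), and 2 had an unadjusted p under 0.05. Gjd3, encoding connexin 30.2 in mouse, had 5.34 and 4.10 CPM in KO and 14.2 and 12.5 CPM in WT, from 4 and 2.5 estimated reads in KO and 24.5 and 22.6 in WT (log2 fold change -1.33, SE 0.42; limma adjusted p = 0.950). The exact counting limits of its ratio were 0.115 and 0.766, both below 1, for counting error only. Like Magi1, Gjd3 was picked from its list for its small unadjusted p. Panx3 had 0 estimated reads in KO and 10 in WT, with exact counting limits of 0 and 1.17 for the ratio. Gjc1, encoding connexin 45, had 11.7 and 11.6 CPM in KO and 13.0 and 9.34 CPM in WT, and Panx1 had 3.46 and 5.54 CPM in KO and 0.637 and 4.50 CPM in WT. All of these except Gjc1 rest on fewer than 10 reads in KO.

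Of 16 desmosome and intermediate filament genes 13 were tested, with log2 fold changes above 0 for 4 and below 0 for 9 (median -0.20), and 1 had an unadjusted p under 0.05. Pkp2, a plakophilin of the desmosomal plaque, had 9.35 and 9.62 CPM in KO and 4.24 and 4.10 CPM in WT (log2 fold change 1.02, SE 0.45; limma adjusted p = 0.950), from 13 reads in KO and 14 in WT. The exact counting limits of its ratio were 1.05 and 5.58, both above 1, for counting error only. Pkp2 too was picked from its list for its small unadjusted p. Dsp, for desmoplakin, had 17.4 and 21.5 CPM in KO and 15.9 and 10.6 CPM in WT. Of the desmoglein genes, Dsg1a had 42.9 and 47.3 CPM in KO and 47.4 and 57.0 CPM in WT, and Dsg1b had 6.53 and 2.62 CPM in KO and 9.93 and 11.001 CPM in WT; the 2 are near copies, between which reads can be divided. Log2 fold changes were below 0 for Dsg1a, Dsg1b and Dsg3 and above 0 for Dsg2 (0.39). Pkp4 had 24.1 and 7.37 CPM in KO and 20.4 and 23.8 CPM in WT. Vim, the intermediate filament of Sertoli cells, had 81.3 and 61.0 CPM in KO and 78.8 and 70.3 CPM in WT.

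**Figure D5:**
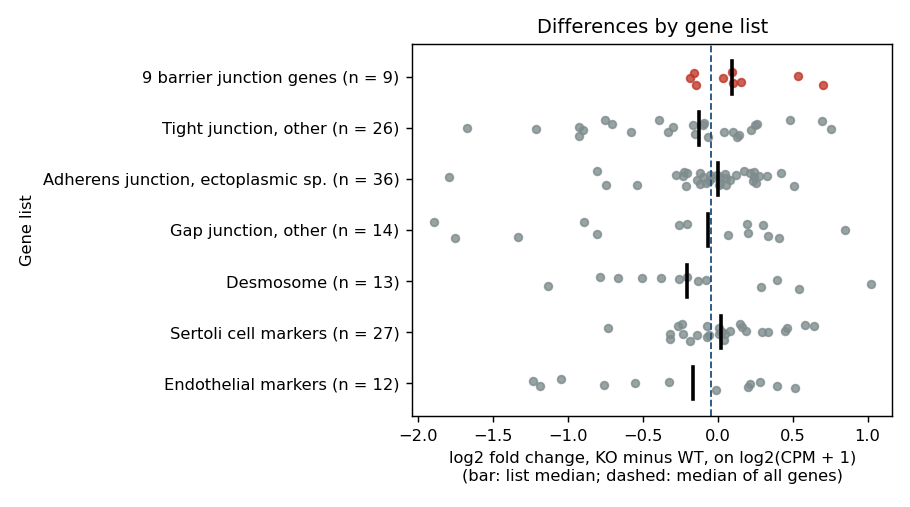
Log2 fold changes, KO minus WT on log2(CPM + 1), of the tested genes of each list (points, spread vertically only to separate them), with list medians as bars and the median of all genes tested, -0.04, as a dashed line. The 9 barrier junction genes lie between -0.18 and 0.70, the adherens junction list is centred at 0.001, and Panx3, Fscn2 and Cldn7, among the points far to the left, are genes with 0 reads in KO.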

How the data were processed

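Per the submitters' processing notes, STAR and Partek were used with mm39; roles and versions are not given in the sources used here. The authors deposited 1 table per library with CPM for 29342 RefSeq transcripts, each column summing to 1000000, not divided by length. The lowest common step between values gave the CPM of 1 read and so the estimated reads. Within 0.01 reads, 20.5% to 45.8% of genes per library were whole, so no count model was fitted. Transcripts were summed per symbol (10 symbols on several chromosomes were kept apart). Genes averaging 1 CPM or more were tested with limma 3.58.1 (R 4.3.3, mean-variance trend, two-sided) on log2(CPM + 1), Benjamini-Hochberg adjusted over all genes, called under 0.05. Samples were grouped by genotype from their titles. The procedure was tested on simulated data. Exact intervals are conditional binomial on estimated reads, summed over libraries and rounded to whole numbers. They are therefore approximate, and cover counting error only.

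The 9 genes and all lists were chosen with earlier results of these data known. All 9 are named. Of each other junction list, the 4 members of smallest unadjusted p and the 2 with the highest mean CPM are named, and of the Sertoli cell and endothelial lists the 2 highest. The endothelial genes so chosen are given only through their list, and 1 junction gene so chosen is not reported here. Figures were drawn with matplotlib 3.10.9.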

Additional observations from a re-analysis of the deposited data

How the results depend on the processing

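Under 15 alternatives, 0 of the 9 junction genes were called in any of them. They used a pseudocount of 0.1 or 5 CPM, all genes unfiltered, genes averaging 5 CPM or more, TMM factors, quantile normalization, no mean-variance trend, an adjusted p under 0.1, thinning to the shallowest library, the highest transcript of each gene, the replicate block and each of the 4 libraries left out. A count model was not run because whole reads were not recovered. Of 135 values of single junction genes, 126 kept their direction and stayed uncalled, and 9 turned direction. Many of the 135 could not turn. The changed filters, the fit without the trend, the replicate block and the adjusted p under 0.1 leave the fold changes of the 9 as they were. Taking the highest transcript likewise cannot change the 7 genes with 1 transcript. The share that kept direction is therefore not a measure of robustness. Thinning was a single random draw from rounded estimated reads, so its values could differ in another draw. It turned Cldn5 to -0.20, Gja1 to 0.17 and F11r to -0.15, and the highest transcript turned Ocln to -0.44. Thinning also moved Ocln, at few reads, to 2.02, Cldn3 to 0.19, Cdh2 to 0.20, Jam3 to -0.30 and Tjp1 to -0.025, and the highest transcript moved Tjp1 to -0.42. With a library left out, log2 fold changes ranged from -0.12 to 0.42 for Cldn11, -0.16 to 0.34 for Cldn3, -0.17 to 0.23 for Cdh2 and -0.063 to 0.26 for F11r. For the genes that kept their direction they ranged from 0.51 to 0.89 for Ocln, 0.076 (without WT replicate 1) to 0.99 (without WT replicate 2) for Cldn5, -0.28 to -0.014 for Tjp1, -0.32 to -0.047 for Gja1 and -0.27 to -0.052 for Jam3. The median of the 9 ranged from -0.12 (without KO replicate 1) to 0.23 (without KO replicate 2). With a library left out, the genotype with 1 library is assumed to vary like the other.

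Over all genes the count called was 1 and became 0 with a pseudocount of 0.1 CPM, without the trend, after thinning and with the highest transcript. It ranged from 0 (without either WT library) to 1054 (without KO replicate 1; 570 without KO replicate 2), fits whose spread comes from the WT pair alone. With the replicate block it was 24. That fit treats libraries of the same replicate number as pairs, and whether they were pairs is unknown. The difference between replicates 1 and 2 correlated at -0.0059 across genes between the genotypes. This value cannot decide the question, because counting error in genes with few reads also lowers such a correlation. Depth limits Ocln and Cldn5 most, with 11 and 19 reads in KO.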

Other observations

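Cldn3, the junction gene with the most estimated reads, was compared with 7363 genes averaging at least 20 CPM by the root mean square difference of log2(CPM + 1), centred on each gene's mean over the 4 libraries. The nearest were Mgll, a monoacylglycerol lipase (0.0246), with 127 and 102 CPM in KO and 90.4 and 124 CPM in WT, the centrosomal gene Cep70 (0.0329), with 41.6 and 36.8 CPM in KO and 30.2 and 43.7 CPM in WT, and Nudt3, a diphosphoinositol phosphate hydrolase (0.0343), with 97.8 and 81.3 CPM in KO and 74.6 and 101.5 CPM in WT. Among the other junction genes F11r came closest, at rank 572 with 0.145, and Cldn11 was at rank 1557 with 0.192. With 4 libraries, such likeness describes these libraries only.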
